A study of Mus musculus with 14 samples.

Results

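The genes described here are 8 regulators and receptors of lateral plate and cardiac mesoderm, chosen by name: *Hand1*, *Hand2*, *Tbx5*, *Tbx20*, *Foxf1*, *Isl1*, *Kdr* and *Pdgfra*, out of 24054 genes in the expression tables. They were measured by low-input RNA-seq in 14 libraries of sorted mouse embryonic stem cells (ESCs) and cells derived from them. In the d0con, d0ko, d3con and d3ko groups, 1 or both alleles of *Foxa2*, the gene of an endoderm transcription factor, carry a Venus reporter in place of the coding region. The con clones (Foxa2-Venus-KO/+) keep 1 intact allele and the ko clones (Foxa2-Venus-KO/Foxa2-Venus-KO) keep none, so the controls are heterozygous rather than wild type. The day 0 libraries (2 per genotype) are cells grown on mitomycin-treated fibroblast feeders without LIF and sorted as negative for the feeders' red fluorescence. The day 3 libraries (3 per genotype) are Venus-positive cells sorted after 3 days on Wnt3a-secreting feeders with 12 ng/ml Activin A. By the clone names in the deposited tables, replicates 1 and 3 of each day 3 group come from the same clone and replicate 2 from another, so 3 libraries stand for 2 clones. In the d2-FVFn and d2-FVFp groups (2 libraries each), a single feeder-free TetON-Foxa2-Venus ESC line in serum and LIF, made by lentiviral transduction of ESCs homozygous for a Sox17-Cherry reporter, received 40 ng/ml doxycycline for 48 h, and Venus-negative and Venus-positive cells were sorted from it.

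The lateral plate is the part of the early mesoderm that gives rise to the heart, vessels, blood and limb mesenchyme. Hand1 and Hand2 are basic helix-loop-helix factors of the heart fields and limb, Tbx5 and Tbx20 are T-box factors of the forming heart, Isl1 is a LIM homeodomain factor of the second heart field, and Foxf1 is a forkhead factor of splanchnic mesoderm. Kdr is a receptor for VEGF that marks early mesoderm with blood, vessel and heart potential, and Pdgfra is a PDGF receptor of mesoderm, of mesenchymal cells such as fibroblasts, and of primitive endoderm.

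On GRCm38, RefSeq places *Hand1* at chr11:57828713-57832147, *Tbx20* at chr9:24720812-24774303 and *Isl1* at chr13:116298270-116309688, each on the minus strand. *Hand2* lies at chr8:57320983-57324517 and *Foxf1* at chr8:121084386-121088154, both on the plus strand. *Pdgfra* (chr5:75151322-75198206, plus strand) and *Kdr* (chr5:75932827-75979072, minus strand) flank the receptor tyrosine kinase gene *Kit*, with gaps of 377 kb from *Pdgfra* to *Kit* and 276 kb from *Kit* to *Kdr*. *Tbx5* lies farther along the same chromosome, at chr5:119796514-119885220 on the plus strand. The 250 bases directly before the gene were available in RefSeq for *Hand2*, *Tbx20* and *Isl1*. They were searched on both strands for 4 GATA words (AGATAA and AGATAG, along with TGATAA and TGATAG), because the genes of the GATA factors Gata4 and Gata6 were called higher at day 3, and for 4 forkhead words (TGTTTAC and TGTTTGC, along with TATTTAC and TATTTGC), because Foxa2 is a forkhead factor. The GATA words occur in 26.5% and the forkhead words in 11.9% of 32851 such windows of the genome. The windows of *Hand2* and *Isl1*, printed below 5′ to 3′ because they hold GATA words, have 2 and 1 of them, in capitals. None of the 3 windows held a forkhead word, and that of *Tbx20* held no GATA word. The windows listed for *Kdr* and *Pdgfra* lie inside the span of the gene given above rather than directly before it. Neither held a GATA or a forkhead word. A match is a description of the letters, not a bound site.
Hand2 (GRCm38.p6, chr8:57320733-57320982, plus strand): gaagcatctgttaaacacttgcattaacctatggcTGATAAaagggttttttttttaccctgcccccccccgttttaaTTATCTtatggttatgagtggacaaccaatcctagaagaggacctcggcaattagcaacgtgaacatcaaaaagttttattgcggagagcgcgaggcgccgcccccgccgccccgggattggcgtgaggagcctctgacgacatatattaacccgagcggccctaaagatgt
Isl1 (GRCm38.p6, chr13:116309689-116309938, minus strand): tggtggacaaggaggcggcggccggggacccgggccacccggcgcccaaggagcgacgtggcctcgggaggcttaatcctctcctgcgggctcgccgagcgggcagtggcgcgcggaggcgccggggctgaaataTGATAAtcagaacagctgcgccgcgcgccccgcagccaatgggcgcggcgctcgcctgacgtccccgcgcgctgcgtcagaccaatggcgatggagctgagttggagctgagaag

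Library totals lay between 14142788 and 27278237 expected counts. *Foxa2* averaged 49.3 ± 12.7 TPM (transcripts from the gene, scaled for gene length and library total; SD, n = 3) in d3con and 0.15 ± 0.04 TPM (SD, n = 3) in d3ko, and 2.50 ± 0.693 TPM (SD, n = 2) in d2-FVFn and 164 ± 6.19 TPM (SD, n = 2) in d2-FVFp. Replicate 2 of d3ko, the only d3ko library of its clone, differed from replicates 1 and 3 in 2 ways. Its 7 pluripotency genes summed to 2679 TPM, against 15480 and 17450 TPM in replicates 1 and 3 of d3ko. The sums were 563 to 987 TPM in d3con and 13840 to 15720 TPM in the day 0 libraries. In d3ko most of each sum was *Dppa5a*, at 14200, 1866.5 and 15543 TPM in replicates 1 to 3. *Sox2*, *Zfp42*, *Klf4* and *Esrrb* were likewise lowest in replicate 2. *Pou5f1* (522.5, 501 and 944 TPM) and *Nanog* (254, 240 and 345 TPM) were nearly level between replicates 1 and 2. Its genes on chromosome 8, which carries *Hand2* and *Foxf1*, had a median 0.44 lower on the log2 scale than in the other d3ko libraries, relative to all autosomes (517 genes), while the genes of chromosome 5, which carries *Kdr*, *Pdgfra* and *Tbx5*, differed by 0.02 (594 genes). Replicates 1 and 3 share the other clone, so a lower chromosome 8 level in 1 clone and a higher level in the other cannot be told apart. Chromosome levels were not compared with other groups. Results that rest on replicate 2 of d3ko are given with and without it. Markers of fibroblasts, the cell type of the feeders, were read in every library: the 15 genes summed to 22.2 and 27 TPM in d0con, 57.5 and 183 TPM in d0ko, 90.8 to 392 TPM in d3con and 196 to 435 TPM in d3ko.

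The *Hand1* level overlapped between nearly all groups. It was 0.6 and 1.29 TPM in d0con, 1.46 and 3.35 TPM in d0ko, 0.68, 8.16 and 4.17 TPM in d3con, 1.53, 24.8 and 4.25 TPM in d3ko, 4.44 and 1.02 TPM in d2-FVFn, and 1.57 and 3.28 TPM in d2-FVFp. Replicate 2 was the highest library of each day 3 group. In the order of group means only d0ko and d0con, at the low end, had ranges that did not overlap their neighbour.

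*Hand2* was near 0 in the ESC groups and low at day 3. It was 0 and 0.09 TPM in d0con, 0 in both d0ko libraries, 1.6, 1.15 and 1.58 TPM in d3con, 0.94, 2.17 and 0.48 TPM in d3ko, 0.05 and 0 TPM in d2-FVFn, and 0 in both d2-FVFp libraries. Every day 3 library lay above every other library, and the ranges of the 2 day 3 groups overlapped. Its neighbour *Hand2os1*, a long noncoding RNA gene on the opposite strand, has a RefSeq model that starts 0.124 kb before *Hand2*. The *Hand2* window printed above reaches into that model. *Hand2os1* was listed at 1.55, 2.03 and 6.4 TPM in d3con and 2.01, 5.62 and 0.52 TPM in d3ko. It was listed at 0 in all 8 other libraries.

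*Tbx5* had the same form. It was 0 in both d0con libraries, 0 and 0.08 TPM in d0ko, 1.73, 2.35 and 3.13 TPM in d3con, 6.98, 5.51 and 0.69 TPM in d3ko, 0 and 0.02 TPM in d2-FVFn, and 0.1 and 0 TPM in d2-FVFp. The lowest day 3 library, replicate 3 of d3ko, still exceeded all ESC libraries, and d3con fell inside the range of d3ko.

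*Tbx20* did not separate the groups, and *Foxf1* was near 0 in all of them. *Tbx20* was 0.48 and 1.11 TPM in d0con, 1.07 and 1.12 TPM in d0ko, 1.89, 0.61 and 1.84 TPM in d3con, 0.54, 2.2 and 0.67 TPM in d3ko, 0.85 and 2.19 TPM in d2-FVFn, and 1.15 and 0.82 TPM in d2-FVFp, so that each group overlapped the next in the order of means. *Foxf1* reached at most 0.34 TPM, or 8 counts, in any library. It did not pass the filter on low counts in either fit, and its changes were not detectable at this depth. Its divergent neighbour *Fendrr* was listed at 0 in all libraries but replicate 2 of d3ko, where it had 0.09 TPM. *Foxl1*, a further forkhead gene of the same cluster, was listed at 0 in both d2-FVFn libraries and at 0.82 and 1.2 TPM in d2-FVFp, where it was called higher (edgeR, adjusted p = 0.00969). *Foxc2* was too low to be tested, and *Mthfsd*, a neighbour outside the forkhead family, was called in no comparison.

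*Isl1* had its highest group mean in d2-FVFp. It was 0.31 and 0.23 TPM in d0con, 0.34 and 0.44 TPM in d0ko, 5.39, 1.67 and 3.56 TPM in d3con, 0.13, 3.67 and 1.07 TPM in d3ko, 3.13 and 3.5 TPM in d2-FVFn, and 4.91 and 5.71 TPM in d2-FVFp. Replicate 1 of d3ko, with 3 counts, lay below all day 0 libraries. The ranges of d3con and d3ko overlapped, as did those of d2-FVFp and d3con. The doxycycline line differs from the other clones in line and medium, so the higher level there cannot be told apart from these.

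The receptor genes were the most abundant of the 8 at day 3. *Kdr* was 0.19 and 0.25 TPM in d0con, 0.19 and 0.34 TPM in d0ko, 6.23, 9.28 and 5.49 TPM in d3con, 27.4, 35.4 and 4.82 TPM in d3ko, 0.25 and 0.23 TPM in d2-FVFn, and 0.24 and 0.4 TPM in d2-FVFp. Replicates 1 and 2 of d3ko, from different clones, were above every d3con library and replicate 3 was below them all. *Pdgfra* was 0.21 and 0.13 TPM in d0con, 0.27 and 0.89 TPM in d0ko, 9.7, 17 and 25.9 TPM in d3con, 8.76, 48.15 and 4.13 TPM in d3ko, 0.14 and 0.07 TPM in d2-FVFn, and 0.57 and 1.99 TPM in d2-FVFp. The day 3 libraries were all above the rest, with the highest and the lowest of them both in d3ko. The share of genes with all day 3 libraries above the rest was not computed. Within each genotype, of the genes that reached 1 TPM, 45% were higher in every d3con than in every d0con library. In every d3ko above every d0ko library were 35.6%.

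**Figure D1:**
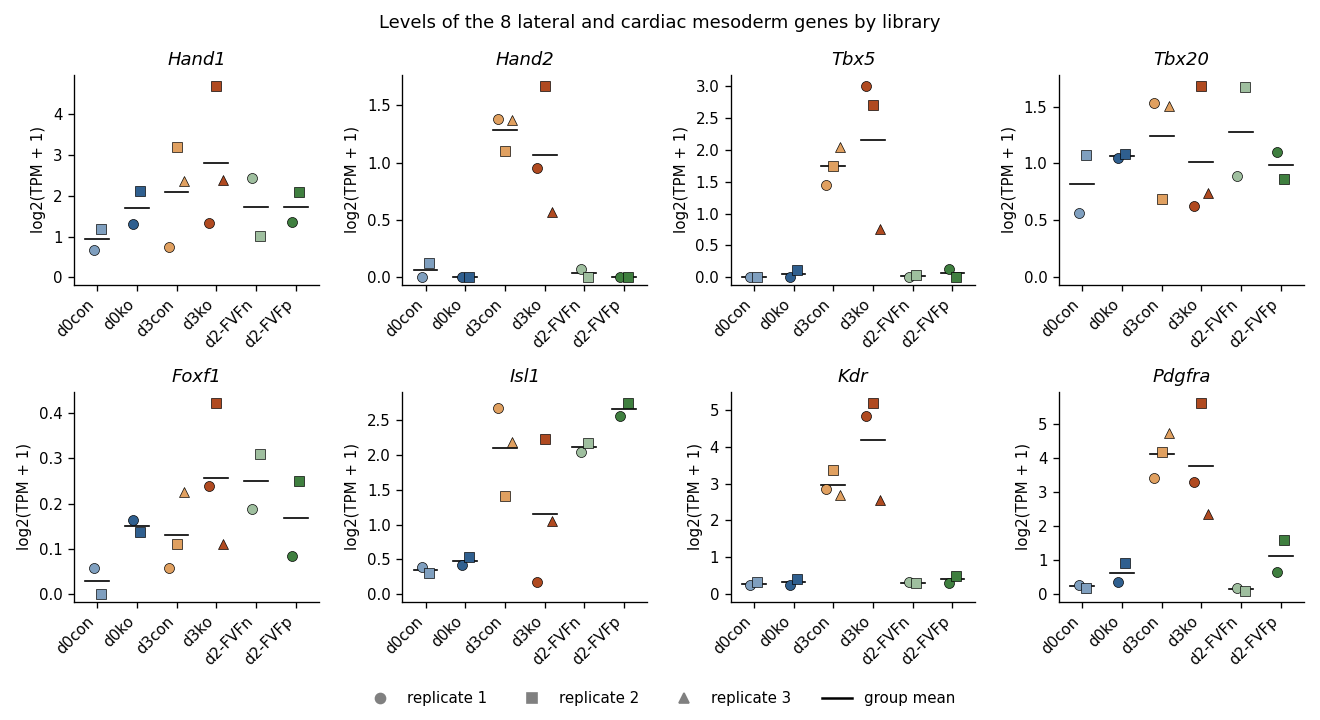
Level of each gene on the log2(TPM + 1) scale (y axis, separate for each gene) in the 6 groups (x axis); each point is a library, its shape gives the replicate number and the line is the group mean. Hand2, Tbx5, Kdr and Pdgfra are higher in all 6 day 3 libraries than in any other, a trait whose share among all genes was not computed. Of the genes that reached 1 TPM, 45% were wholly higher in d3con than in d0con and 35.6% in d3ko than in d0ko. For Tbx20 and Foxf1 each group overlaps the next in the order of means.

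Differentiation of the control clones was the first comparison (d3con against d0con). A gene was called at an adjusted p-value under 0.05 in edgeR's quasi-likelihood test and a change over 2-fold. Of the 8 genes 7 were tested and 5 were called higher, *Hand2*, *Tbx5*, *Isl1*, *Kdr* and *Pdgfra*, where 35.2% of all 13899 tested genes were called, 20.6% higher and 14.6% lower. The median log2 fold change of the 7 was 4.77, also with *Tbx5*, which had no count in d0con, at its bound, beside 0.07 over all tested genes. In bulk samples a larger share of cells with a gene on and more RNA per cell cannot be told apart.

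The *Pdgfra* gene rose by 6.43 in log2 units (SE 1.28, edgeR, adjusted p = 0.00319) and *Kdr* by 4.79 (SE 0.86, edgeR, adjusted p = 0.00205). *Isl1* rose by 3.50 (SE 1.16, edgeR, adjusted p = 0.0309). That call was lost without any 1 of 4 libraries, both d0con libraries and replicates 1 and 3 of d3con (adjusted p = 0.0552 to 0.151 in edgeR). *Tbx5* had no count in d0con and 334 counts in d3con, so its level was at least 30.1-fold higher, taking 3 counts in each d0con library as the floor (edgeR, adjusted p = 0.00449). *Hand2* went from 2 to 113 counts, a ratio of 30.6 per sequenced count with a 95% counting interval of 8.27 to 255 (edgeR, adjusted p = 0.00837), and lost its call without replicate 1 of d0con (edgeR, adjusted p = 0.0572). *Hand1* (1.95, SE 1.26, edgeR, adjusted p = 0.217) and *Tbx20* (0.47, SE 0.73, edgeR, adjusted p = 0.612) did not pass.

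In the clones without Foxa2 (d3ko against d0ko), 4 of the 7 tested genes were called higher, where 17.3% of all tested genes were called, 11.6% higher and 5.72% lower. The median log2 fold change was 4.96, or 3.28 with *Hand2* at its bound, beside 0.07 over all tested genes. *Kdr* rose by 6.23 in log2 units (SE 0.89, edgeR, adjusted p = 0.00208) and *Pdgfra* by 4.96 (SE 1.13, edgeR, adjusted p = 0.0121). *Hand2*, with no count in d0ko and 82 in d3ko, was at least 9.69-fold higher by the same floor (edgeR, adjusted p = 0.00798). *Tbx5* went from 4 to 505 counts, a ratio of 89.5 with a counting interval of 34.7 to 330 (edgeR, adjusted p = 0.00961). *Isl1* had a difference of 1.87 (SE 1.07, edgeR, adjusted p = 0.209), *Hand1* of 1.90 (SE 1.21, edgeR, adjusted p = 0.259) and *Tbx20* of 0.04 (SE 0.72, edgeR, adjusted p = 0.969), and none of the 3 passed. Without replicate 2 of d3ko 4 genes were still called, and the differences were 3.35 for *Pdgfra* (edgeR, adjusted p = 0.00616), 0.12 for *Hand1*, 0.53 for *Isl1* and -0.95 for *Tbx20*. Without replicate 1 of d0ko only *Kdr* was still called, while *Hand2* (edgeR, adjusted p = 0.0631), *Tbx5* (0.0786) and *Pdgfra* (0.107) lost the call. Without replicate 2 of d0ko *Kdr* and *Tbx5* were called, and *Hand2* (edgeR, adjusted p = 0.0529) and *Pdgfra* (0.0571) were not. *Pdgfra* also lost the call with the 2 groups fitted alone (edgeR, adjusted p = 0.057) and against a 2-fold change in DESeq2 (adjusted p = 0.0796). In d0ko the higher *Pdgfra* library, replicate 2, was also the one with 183 TPM of fibroblast markers. The part of the feeder markers in the *Pdgfra* result was not tested. At day 3 the fibroblast markers summed to 435, 196 and 396 TPM in replicates 1 to 3 of d3ko.

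The comparison that addresses the loss of Foxa2 at day 3 (d3ko against d3con) called none of the 7 tested genes, where 8.26% of all tested genes were called, 4.75% higher and 3.51% lower. At an unadjusted p under 0.05, 1 of them passed in edgeR, *Kdr*, as did 3878 of all 13899 tested genes (27.9%), and DESeq2 called the same gene. *Kdr* was 1.68 higher on the log2 scale in d3ko (SE 0.58, 95% interval 0.37 to 2.99, edgeR, adjusted p = 0.0989). It was called without replicate 3 of d3ko (2.16, edgeR, adjusted p = 0.0166) and by DESeq2 (1.69, adjusted p = 0.0221). Without replicate 2 of d3ko it was 1.22 (edgeR, adjusted p = 0.158), and the values without any 1 library ran from 1.22 to 2.16. The interval for *Pdgfra* ran from -1.54 to 1.96 around 0.21, and without replicate 2 of d3ko the value turned to -1.41 (edgeR, adjusted p = 0.0793). *Hand1* behaved likewise, at 1.24 (interval -1.06 to 3.53) with and -0.54 without that library. *Isl1* was -1.17 (interval -3.12 to 0.78), and -2.52 without that library (edgeR, adjusted p = 0.0503). *Tbx5* was 0.88 (interval -0.96 to 2.72), *Hand2* -0.30 (interval -1.87 to 1.28) and *Tbx20* -0.23 (interval -1.68 to 1.22). The intervals leave room for changes over 2-fold in every one of these genes. *Foxa2* itself fell by 8.26 in the same fit (SE 0.36, edgeR, adjusted p = 2.59e-05).

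At day 0 (d0ko against d0con) no gene of the 8 and no other gene was called by edgeR (0% of those tested, with 195 genes at an unadjusted p under 0.05), while DESeq2 called 1 gene, none of the 8. *Hand1*, *Foxf1*, *Isl1* and *Pdgfra* were higher in both d0ko libraries than in both d0con libraries, as were 28.3% of the genes that reached 1 TPM. The test of whether the day 3 change differed between genotypes (the interaction) likewise called none of the 8 and no other gene in edgeR (0%, with 1840 genes at an unadjusted p under 0.05), while DESeq2 called 566 genes, none of the 8. The interaction was 1.44 for *Kdr* (interval -1.08 to 3.96) and -1.62 for *Isl1* (interval -4.96 to 1.71).

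Induction of Foxa2 in ESCs (d2-FVFp against d2-FVFn) called 1 of the 4 tested genes, where 8.43% of 12943 tested genes were called, 6.96% higher and 1.47% lower. This was *Pdgfra*, with 8 and 5 counts in d2-FVFn and 28 and 115 counts in d2-FVFp, a difference of 3.55 in log2 units (SE 0.73, edgeR, adjusted p = 0.0199). The call was lost without replicate 1 (edgeR, adjusted p = 0.0659) or replicate 2 (edgeR, adjusted p = 0.0957) of d2-FVFn, and without either d2-FVFp library the gene fell below the filter. The highest *Pdgfra* library, replicate 2 of d2-FVFp, also had the highest sum of fibroblast-list genes in the line, 199 TPM against 29.8 to 88.9 TPM in the other 3. The muscle and fibroblast genes *Tagln*, at 158 TPM, and *Acta2*, at 26.5 TPM, made up most of that sum, while *Col1a1* was between 1.05 and 1.58 TPM in all 4 libraries. The part of these genes in the result was not tested. *Isl1* was 0.63 higher (SE 0.27, edgeR, adjusted p = 0.153), with both d2-FVFp libraries above both d2-FVFn libraries, as for 34.5% of the genes that reached 1 TPM. *Hand1* (-0.19, SE 0.69) and *Tbx20* (-0.17, SE 0.45) did not pass, and *Hand2*, *Tbx5*, *Foxf1* and *Kdr* were below the filter.

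**Figure D2:**
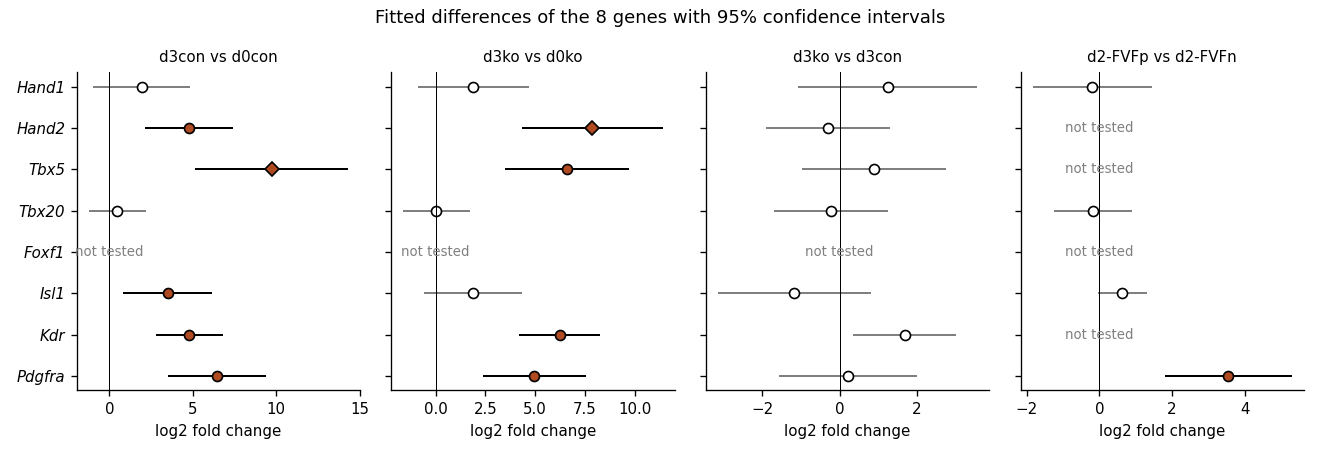
Fitted log2 fold change (x axis, separate for each comparison) of each gene (y axis) with its 95% confidence interval; filled symbols were called, open ones were not, and diamonds have no count in the second group, so that their value depends on the prior count. With differentiation 5 genes were called in the controls and 4 in the clones without Foxa2, beside 35.2% and 17.3% of all tested genes. Between d3ko and d3con 0 were called, beside 8.26%, and after induction Pdgfra alone, beside 8.43%.

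Kdr acts with other receptors and with secreted ligands of the VEGF family. Of 9 other VEGF pathway genes, 5 were called higher and 1 lower in d3con than in d0con. Of all tested genes 20.6% were called higher and 14.6% lower there. The shares were 4.75% and 3.51% in d3ko against d3con, and 6.96% and 1.47% after induction. *Flt1*, whose product is the other main VEGF receptor and binds the ligand tightly, was 0.19 and 0.23 TPM in d0con and 84.2, 61.9 and 94.3 TPM in d3con. The ligand gene *Vegfa* rose by 3.75 in log2 units (SE 0.33, edgeR, adjusted p = 0.000164), *Vegfb* by 1.21 and *Pgf* by 2.88, and the coreceptor gene *Nrp1* was called higher while *Nrp2* fell by 2.49. In d3ko *Flt1* was 7.37, 11.7 and 1.27 TPM, and between d3ko and d3con it fell by 3.58 (SE 0.65, edgeR, adjusted p = 0.0142). *Nrp2* was 2.14 higher (SE 0.53, edgeR, adjusted p = 0.0353), and the other 7 VEGF genes did not pass. The *Flt1* call was lost without replicate 1 or 3 of d3con or replicate 1 of d3ko (edgeR, adjusted p = 0.0502 to 0.0646), without both replicates 1 (0.159), with the 2 groups alone (0.0585) and with libraries of a clone summed (-3.35, 0.0975). *Nrp2* kept its call in 1 of 6 fits without a single library. In units of TPM per TPM, *Kdr* was 0.074, 0.15 and 0.0582 of *Flt1* in d3con and 3.71, 3.01 and 3.79 times *Flt1* in d3ko, a ratio chosen after the values were seen and given without a test. In the doxycycline line 4 of 8 tested VEGF genes were called higher, *Flt1*, *Vegfa*, *Nrp1* and *Nrp2*, of which *Flt1* alone kept the call in each fit without a single library. *Flt1* went from 0.18 and 0.45 TPM to 8.4 and 13.1 TPM (4.99, SE 0.41, edgeR, adjusted p = 0.00128), while *Kdr* had 25 counts in d2-FVFn and 29 in d2-FVFp, a ratio of 1.32 with a counting interval of 0.747 to 2.35.

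*Kit*, the gene between *Pdgfra* and *Kdr*, encodes the stem cell factor receptor. It rose by 2.80 on the log2 scale in d3con against d0con (SE 0.34, edgeR, adjusted p = 0.000411) and by 1.24 in d3ko against d0ko (SE 0.32, edgeR, adjusted p = 0.0183). *Kit* was called between the day 3 groups, where it fell by 1.24 in d3ko (SE 0.27, edgeR, adjusted p = 0.0242), from 86.3, 77.7 and 142 TPM to 37.4, 31 and 59.9 TPM. That call was lost without replicate 1 or 3 of d3con or replicate 1 of d3ko (edgeR, adjusted p = 0.0684 to 0.0927) and with clones summed (-1.25, edgeR, adjusted p = 0.119). The rise in d3ko lost its call without either d0ko library (edgeR, adjusted p = 0.141 and 0.0824), and without replicate 3 of d3ko it was 0.92. Whether its difference departs from that of *Kdr* or *Pdgfra* was not tested.

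**Figure D3:**
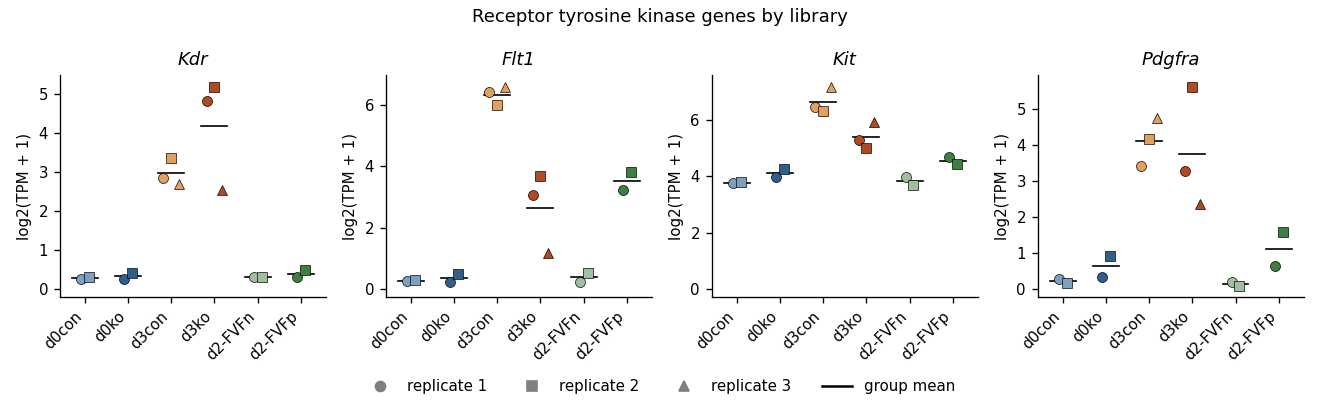
Level of 4 receptor genes on the log2(TPM + 1) scale (y axis, separate for each gene) in the 6 groups (x axis); points are libraries, shapes are replicate numbers and lines are group means. Flt1 and Kit are lower in all 3 d3ko libraries than in any d3con library, whereas Kdr is higher in 2 d3ko libraries and lower in the third. Of the genes that reached 1 TPM, 12.2% were wholly lower in d3ko than in d3con and 11.1% wholly higher.

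Pdgfra binds ligands of the PDGF family. Of 5 other PDGF genes 4 were tested, beside the same shares of all tested genes as for the VEGF genes. In d3con against d0con *Pdgfb* rose by 2.12 on the log2 scale and the receptor gene *Pdgfrb*, which is also on the fibroblast list, by 2.59, while *Pdgfc* fell by 3.88. *Pdgfa* had the highest level of the ligand genes in all 14 libraries, between 20.4 and 113 TPM, and did not pass (-0.55, SE 0.39, edgeR, adjusted p = 0.262). None of the 4 was called between d3ko and d3con. In the doxycycline line *Pdgfa* was the 1 PDGF gene called of 4 tested, 1.15 higher (SE 0.23, edgeR, adjusted p = 0.0171), a call kept in 1 of 4 fits without a single library, that without replicate 2 of d2-FVFp.

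Other genes of the same lineages were read from lists, here and below. Over all tested genes, 20.6% were called higher and 14.6% lower in d3con against d0con, and 11.6% and 5.72% in d3ko against d0ko. The shares were 4.75% and 3.51% in d3ko against d3con, and 6.96% and 1.47% after induction. Of 12 tested further cardiac transcription factor genes, 8 were called higher and 2 lower in d3con than in d0con. *Gata4* rose from 1.05 and 0.83 TPM to 142, 75.9 and 153 TPM, and *Gata6* from 0.27 and 0.12 TPM to 46.4, 42.6 and 50.4 TPM. *Myocd*, whose product is a coactivator of muscle genes, was 12.4, 2.5 and 16.7 TPM in d3con. In the doxycycline line 5 of 8 tested were called higher, among them *Gata6* (5.19, SE 0.44, edgeR, adjusted p = 0.00148), *Gata5* (5.08, SE 0.62, edgeR, adjusted p = 0.00367) and *Gata4* (2.59, SE 0.30, edgeR, adjusted p = 0.00338). *Nkx2-5*, a defining gene of cardiac progenitors, was listed at 0 in all d3con libraries and 2 of 3 d3ko libraries. Between d3ko and d3con 1 of the 12 was called higher and 2 lower.

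Contractile genes of heart muscle were called higher for 5 and lower for 1 of 11 tested in d3con against d0con, and lower for 1 (*Myl3*) between d3ko and d3con. Of the 14 listed, 6 reached 1 TPM in each d3con library. The highest there was *Myl7*, at 51.9, 91.6 and 100 TPM after 12.7 and 13.4 TPM in d0con. *Myl3* was 21.3, 5.82 and 9.45 TPM in d3con and 0.26, 0.48 and 1.09 TPM in d3ko. *Tnnt2*, the cardiac troponin T gene, was 2 to 2.87 TPM in d3con after 0 in d0con. *Actc1*, the cardiac actin gene, was 2.7 to 10.1 TPM in d3con. *Myh6* was called lower. Of 11 tested further lateral mesoderm genes, 6 were called higher and 2 lower. *Msx1* reached 86.4, 45 and 102 TPM and *Wnt2* 18.7, 3.88 and 21.2 TPM in d3con, *Tbx4* was listed at 0 there, and *Bmp4*, the gene of a secreted inducer of lateral mesoderm, fell by 4.76 in log2 units (SE 0.50, edgeR, adjusted p = 0.00028). In d3ko *Bmp4* was 2.49 higher than in d3con (SE 0.44, edgeR, adjusted p = 0.0137), 1 of 2 lateral genes called higher there and none lower. *Msx1* and *Wnt2* were not called there. The highest levels of *Bmp4* were in the day 0 ESCs, at 198 and 147 TPM in d0con and 140 and 111 TPM in d0ko. At day 3 it was 8.3, 9.34 and 4.16 TPM in d3con and 55.1, 18.5 and 49.2 TPM in d3ko. The *Bmp4* call was lost without replicate 1 (edgeR, adjusted p = 0.0539) or 3 (0.0646) of d3con and with clones summed (2.17, 0.113). A list of 6 genes held those of E proteins, the partners of Hand factors, those of Ldb proteins, the partners of Isl1, and *Lmo4*. Of these, 3 were called higher and 1 lower at day 3 in the controls. *Ldb2* went from 0 to between 3.08 and 5.27 TPM, *Tcf4* rose by 1.31, *Tcf12* by 1.35, and *Ldb1* fell by 1.31.

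Genes of nascent mesoderm, the primitive streak stage that precedes the lateral plate, rose together in both genotypes. In d3con 9 of 10 were called higher and in d3ko 8 of 10, and none was called between the day 3 groups. Their summed level was 879 to 1289 TPM in d3con and 335, 1228 and 216 TPM in d3ko, so replicate 2 of d3ko, the highest library for *Hand1*, *Hand2*, *Tbx20*, *Kdr* and *Pdgfra*, was also the highest d3ko library here. *T*, the streak gene Brachyury, was 11.4, 131 and 15.5 TPM in d3con and 13.7, 212 and 55.7 TPM in d3ko. Markers of blood and endothelium, to which Kdr-positive mesoderm gives rise, summed to 31.8 to 48.4 TPM in d3con and 194, 61.5 and 117 TPM in d3ko. The order within d3ko was not that of *Kdr*. *Pecam1*, which ESCs also express, made up 50.3, 6.71 and 78.7 TPM of these sums. Apart from it, replicate 1 of d3ko was high in *Etv2* (81.5 TPM against 15.7 to 40.5 TPM in the other 5 day 3 libraries), *Lmo2* (15.4 against 1.93 to 4.24 TPM) and *Tal1* (3.58 against 0.02 to 0.52 TPM), 3 early blood and vessel factor genes chosen after their values were seen. Of the day 3 libraries, *Gata2* was highest in replicate 3 of d3ko (14.5 TPM), *Flt4* in replicate 2 of d3ko (2.39 TPM) and *Runx1* in replicate 1 of d3con (8.27 TPM). *Emcn* had no count, and the rest of the list was highest in replicate 1 of d3ko. That library was also 1 of 2 with *Kdr* above 20 TPM. The other, replicate 2 of d3ko, had the higher *Kdr* but *Lmo2* at 2.27 TPM and *Tal1* at 0.12 TPM. The part of such cells in the *Kdr* level was not tested.

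**Figure D4:**
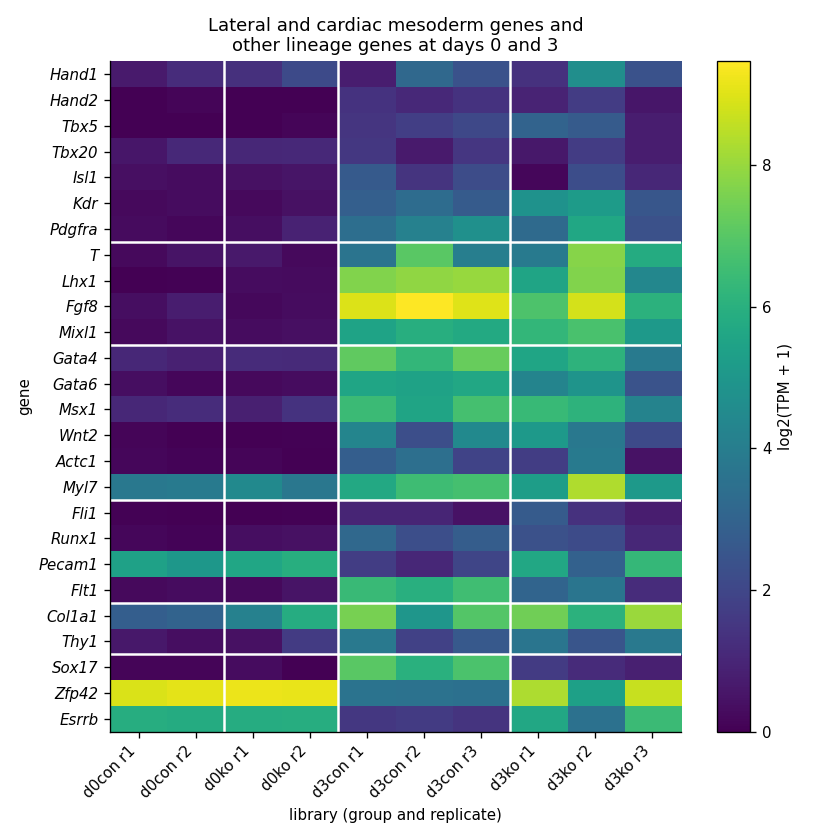
Level of 7 of the 8 genes (top block) and of genes of nascent mesoderm, cardiac and lateral mesoderm, blood and vessel, fibroblast, and endoderm or pluripotency (blocks below, separated by white lines) in the 10 libraries of days 0 and 3; colour is log2(TPM + 1). Replicate 2 of d3ko has the highest Hand1, Pdgfra, T and Myl7 of all libraries and less Zfp42 and Esrrb than the other d3ko libraries.

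The likeness of patterns was described over the 6 day 3 libraries, which share 4 clones, as Pearson's r of log2(TPM + 1) among 3875 genes with a mean of at least 1 TPM and an SD of at least 0.5. Among the genes themselves the closest pair was *Tbx5* with *Kdr* (r = 0.86), followed by *Hand1* with *Pdgfra* (r = 0.69), and the least alike was *Isl1* with *Kdr* (r = -0.28). *Hand2* and *Tbx20* were too even to enter, and *Foxf1* too low. The nearest genes were *Ptgds*, *Nxph4* and *Nkd2* for *Hand1* (r = 0.986 to 0.989), *Fam126a*, *Meox1* and *Fbln2* for *Tbx5* (r = 0.978 to 0.979), and *Bik*, *1600023N17Rik* and *H2-Oa* for *Isl1* (r = 0.942 to 0.952). For *Kdr* they were *Zeb2*, *Smim3* and *Lpar4* (r = 0.961 to 0.97), and for *Pdgfra* *Lmo1*, *Prtg* and the atrial myosin light chain gene *Myl7* (r = 0.958 to 0.976). *Myl7* was 51.9, 91.6 and 100 TPM in d3con and 37, 321 and 32.6 TPM in d3ko. These values describe 6 libraries, and of the 15 named genes 5 or 9 stayed among the nearest 3 under other settings.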

How the data were processed

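RNA of 14 sorted samples was amplified and sequenced, and the authors aligned reads to mouse mm10 with STAR and estimated gene levels with RSEM on RefSeq transcripts; tool versions are not given in the sources used here. The deposited expected counts are RSEM's estimated reads per gene, with no scaling. The deposited TPM values were scaled by the authors for gene length and library total. Read length was inferred from the gap between length and effective length in the deposited values. By this, replicate 1 of d3con and of d3ko had 75-base reads and the rest 50-base reads. The authors' methods give 50-base single-end reads for all of these cells. FPKM columns were not used. Expected counts were rounded, and genes with at least 1 CPM in at least 2 libraries were tested in edgeR 4.0.16 under R 4.3.3 (TMM scaling, quasi-likelihood fit and F statistic), with p-values Benjamini-Hochberg adjusted over all tested genes, in a fit of 10 libraries (days 0 and 3) and a fit of 4 (doxycycline). The fits were tested on simulated data. The standard error is the log2 fold change divided by the square root of F. Counting intervals (95%) and floors (3 counts) cover counting error only. Labels name no separate cultures, so p-values measure the spread between libraries, which share clones.

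The 8 genes and all gene lists were chosen with earlier results of these data known. Named genes are the 8; *Foxa2*; of each list up to 4 called genes with the largest changes; VEGF and PDGF genes and neighbours; and the 3 genes of nearest pattern (TPM of at least 1, SD of at least 0.5). Others named (*Nkx2-5*, *Bmp4*, *Etv2*, *Lmo2*, *Tal1*) were chosen after their values were seen. *Hand2os1* was matched by RefSeq accession and *Vegfd* by its older symbol. Alternatives were RLE scaling, no filter, DESeq2 1.42.0 (also on 2 groups against 2-fold), edgeR on 2 groups, a replicate block, leaving out libraries, and, added after seeing the data, libraries of a clone summed.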

Additional observations from a re-analysis of the deposited data

How the results depend on the processing

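With 2 or 3 libraries per group, 2 clones per genotype and levels under 10 TPM for most of the 8 genes, directions of uncalled differences are not settled. Numbers of the 8 genes called ranged, when single libraries were left out, from 3 to 5 (d3con against d0con), 1 to 4 (d3ko against d0ko), 0 to 1 (d3ko against d3con) and 0 to 0 (induction). They became 1 with DESeq2 (*Kdr*) and 2 without both replicates 2 (*Isl1* at -2.85 and *Tbx20* at -1.56, both lower) for d3ko against d3con, and 0 with DESeq2 against 2-fold for induction. Numbers of all genes called, when single libraries were left out, ranged from 667 to 2860 (d3ko against d0ko), 80 to 2249 (d3ko against d3con), 0 to 1118 (interaction) and 562 to 893 (induction). DESeq2 against 2-fold called 2294 (d3con against d0con, 4890 in the fit reported), 411 (d3ko against d0ko, 2408), 312 (d3ko against d3con, 1148), 1 (d0ko against d0con) and 233 (induction, 1091), and edgeR on 2 groups 1345 (d3ko against d0ko) and 67 (d3ko against d3con). For d3ko against d3con 1 gene was called without both replicates 1, 2572 without both replicates 2 and 1 with clones summed. For the interaction RLE called 1, no filter 16, DESeq2 566 and both replicates 2 left out 1628; for d0ko against d0con DESeq2 called 1. The cause was not tested. Of 22 other genes named as called in d3con against d0con, 17 kept the call without each single library (not *Vegfb*, *Pgf*, *Pdgfb*, *Pdgfrb* and *Foxc1*, lost without replicate 1 of d0con), as did 1 of 10 in d3ko against d3con (*Sox17*) and 6 of 10 after induction (of which *Gata5*, *Gata6* and *Foxl1* passed the filter in 2 of 4 such fits).

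The labels do not say that a replicate number marks a shared culture or batch. Same-numbered deviations correlated at 0.54, 0.29 and -0.01 between the day 3 groups, 0.11 at day 0, 0.29 in the doxycycline line and -0.04 to 0.06 between days. Within a day or line the best match had the same number, except for replicate 3 at day 3. In a group of 2 libraries the deviations from the mean mirror each other. The matches at day 0 and in the doxycycline line therefore rest on 1 sign each. Replicate 1 of d3con and of d3ko also share the inferred read length of 75 bases. The fits reported did not take the numbers as pairs, and whether they mark a shared batch was not tested. With a replicate block the number of the 8 genes called stayed at 5, 4, 0 and 1, *Pdgfra* turned to -0.32 in d3ko against d3con and *Hand1* to 0.01 after induction. No such turn was called.

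Other values that turned were *Pdgfra* in d3ko against d3con (-1.44 without both replicates 2, where *Hand2* was -1.19 and the *Tbx20* interaction -1.76), *Tbx20* in d3ko against d0ko (-0.96 without both replicates 2) and d3ko against d3con (0.11 without both replicates 1, 0.21 with clones summed), and the interaction with clones summed for *Hand1* (0.09) and *Tbx20* (0.03). Leaving out single libraries gave ranges that cross 0 in d3ko against d3con for *Hand1* (-0.54 to 2.08), *Hand2* (-1.03 to 0.09), *Tbx20* (-1.23 to 0.21) and *Pdgfra* (-1.41 to 0.70); in d3ko against d0ko for *Tbx20* (-0.95 to 0.48); in d0ko against d0con for *Tbx20* (-0.02 to 0.44) and *Kdr* (-0.20 to 0.59); in the interaction for *Hand1* (-1.83 to 0.78), *Hand2* (-0.30 to 4.12), *Tbx5* (-4.11 to 0.88) and *Tbx20* (-1.42 to 0.02); and after induction for *Hand1* (-0.89 to 1.23) and *Tbx20* (-0.57 to 0.46). At day 0 *Hand2* and *Tbx5* had no value where the only library with counts was left out.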

Other observations

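Other gene lists were read in the same libraries. Of all tested genes 35.2% were called in d3con against d0con and 17.3% in d3ko against d0ko. The shares were 8.26% in d3ko against d3con and 8.43% after induction. Definitive endoderm genes were called higher for 9 of 9 tested in d3con against d0con and lower for 6 of 9 in d3ko against d3con, *Sox17* by -6.24 in log2 units (SE 0.54, edgeR, adjusted p = 0.00226; -6.20 and 0.0568 with clones summed). Primitive endoderm genes were called higher for 8 of 12 in d3con against d0con, lower for 2 of 12 between the day 3 groups, and higher for 4 of 11 after Foxa2 induction, where *Col4a1* rose by 3.19 (SE 0.16, edgeR, adjusted p = 0.000269). Pluripotency genes fell for 6 of 7 in d3con against d0con, for 0 of 7 in d3ko against d0ko, and were higher for 5 of 7 in d3ko than in d3con.

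Of 7 tested paraxial mesoderm genes, which mark the somite-forming neighbour of the lateral plate, 3 were called higher and 1 lower in d3con against d0con. *Foxc1* rose by 5.53 in log2 units (SE 1.37, edgeR, adjusted p = 0.00896) and *Tcf15* fell by 5.47 (SE 0.76, edgeR, adjusted p = 0.000649). Between d3ko and d3con 1 was called higher (*Tcf15*) and 1 lower (*Pcdh8*), and after induction none of 4 was called. Of 12 tested blood and endothelial genes 3 were called higher and 2 lower in d3con against d0con. That is near the 20.6% and 14.6% of all tested genes. *Gata2* and *Pecam1* were the 2 called higher in d3ko than in d3con. With clones summed none of these d3ko against d3con calls (*Sox17*, *Tcf15*, *Pcdh8*, *Gata2*, *Pecam1*) was kept (edgeR, adjusted p = 0.0568 to 0.211), and without single libraries *Sox17* alone of them was kept in all 6 fits. Fibroblast genes were called higher for 8 of 14 in d3con against d0con and for none of 14 between the day 3 groups.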
